A study of Rattus norvegicus with 4 samples.

Results

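Cytotoxic lymphocyte effector genes were examined in rat colon. The list held 10 genes: Gzmb, Gzma, Gzmk and Gzmm (granzymes), Prf1 (perforin), Nkg7 (a granule membrane protein), Klrd1 (CD94, a natural killer receptor chain), Cd8a and Cd8b (the chains of the CD8 coreceptor) and Faslg (Fas ligand). The genes were chosen by name with earlier results of the same comparison known, and their rows were selected on holding an intensity on all 4 arrays, so the levels and differences of these genes are given as a description with no test. Of the 10 genes, 4 were measured (Gzmb, Gzma, Nkg7 and Cd8a), 5 had a row that was blank on all 4 arrays (Gzmk, Prf1, Klrd1, Cd8b and Faslg), and 1 (Gzmm) was not matched to a row by name. They stand among 6968 named and measured genes and 18350 measured rows of 26420. The values of the 4 measured genes do not speak for the other 6.

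Colon tissue came from male Sprague Dawley rats, either controls or rats given mesenchymal stem cell transplantation (MSCT), with 2 one-color NimbleGen arrays per group. Each array was taken as 1 rat, which the sources used here do not state. In the MSCT group, inflammatory bowel disease (IBD) was induced by instilling TNBS in ethanol into the colon, and mesenchymal stem cells (MSCs) carrying green fluorescent protein were then given through the tail vein. The control rats received no MSCs. The sample labels call them normal rats, whereas the paper calls them IBD rats, so whether they carried TNBS colitis is not settled here, and a difference between the groups cannot be told apart as one of colitis or of MSC transplantation. The paper places the chips at different days in its Methods and Results, the labels give no day, and neither gives an age.

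Cytotoxic T lymphocytes and natural killer (NK) cells kill infected or damaged cells by releasing granules onto them. Perforin opens a path through the membrane of the target cell, and granzymes, a family of serine proteases, enter and cut proteins that start cell death. Fas ligand on the killer cell triggers death through the receptor Fas instead. In the gut, such cells lie between the epithelial cells and in the lamina propria, and many of the CD8 T cells of the epithelium carry granzymes at rest. Granzyme B is also made by some mast cells and other leukocytes.

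The stretch before each gene's start is shown for the 4 measured genes. The motifs were chosen with earlier results of these data known, so the matches are a description with no test. Whether they bear on the differences between the groups was not tested. The table of RefSeq promoters (build GRCr8) held 8 of the 10 genes, all but Klrd1 and Cd8b. In the 250 bases before the start, 9 motifs were searched on both strands, and matches to different motifs were counted separately even where they overlap. The letters TGTGGT, the core that Runx factors bind, were found before 6 of the 8 genes (Gzmb, Gzma, Gzmk, Gzmm, Prf1 and Nkg7) and not before Cd8a or Faslg. They occur in 13.3% of 21851 promoters of protein-coding genes. Capitals mark these letters or, on the other strand, ACCACA, and each sequence reads 5′ to 3′ toward the gene.
Gzmb, chr15:34462470-34462719, minus strand: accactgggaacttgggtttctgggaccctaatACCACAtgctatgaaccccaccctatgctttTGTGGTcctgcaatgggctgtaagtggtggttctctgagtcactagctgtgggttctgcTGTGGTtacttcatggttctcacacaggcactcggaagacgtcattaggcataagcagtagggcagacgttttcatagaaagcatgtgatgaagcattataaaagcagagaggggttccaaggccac
Gzma, chr2:46485697-46485946, minus strand: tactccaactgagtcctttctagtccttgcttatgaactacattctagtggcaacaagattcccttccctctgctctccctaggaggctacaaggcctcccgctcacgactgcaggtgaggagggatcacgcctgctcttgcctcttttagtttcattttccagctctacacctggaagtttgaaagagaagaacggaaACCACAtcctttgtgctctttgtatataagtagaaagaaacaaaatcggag
Nkg7, chr1:102981247-102981496, plus strand: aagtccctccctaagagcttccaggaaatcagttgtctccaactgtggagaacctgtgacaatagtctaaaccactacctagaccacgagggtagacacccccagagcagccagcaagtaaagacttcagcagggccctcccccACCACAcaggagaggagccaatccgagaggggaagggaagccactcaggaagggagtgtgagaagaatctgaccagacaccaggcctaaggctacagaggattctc
Cd8a, chr4:104923866-104924115, plus strand: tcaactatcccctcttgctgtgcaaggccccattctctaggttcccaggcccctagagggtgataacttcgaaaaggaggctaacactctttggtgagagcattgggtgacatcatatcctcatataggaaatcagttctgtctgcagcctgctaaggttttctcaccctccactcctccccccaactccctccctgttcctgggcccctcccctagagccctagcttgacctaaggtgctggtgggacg

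Gzmb held the Runx letters 3 times, with matches that begin 217, 186 and 127 bases before the start, while Gzma (51 bases) and Nkg7 (106 bases) held them once. The AP-1 letters TGANTCA (5.7% of promoters) were found before 1 of the 8 genes, Gzmb, and the CRE letters TGACGT (7.9%) before Gzmb and Prf1. The T-box letters AGGTGT (11.2%) were found before Gzma and Faslg, and the STAT letters TTCNNNGAA (7.3%) before Gzmb and Nkg7. The Ets letters GGAAGT (20.6%) and the Ikaros letters TGGGAA (21.8%) were found before 3 genes each, the NFAT letters GGAAAA (21.4%) before 1 gene and the GATA letters AGATAA (9.2%) before 0. A match describes the sequence and does not show that a factor binds there.

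Granzyme B, the granzyme best known for cutting caspases, was the gene with the widest gap between the groups. Gzmb (NM_138517) read 6.88 (replicate 1) and 5.87 (replicate 2) in log2 intensity in the control rats, against 8.29 and 8.29 in the rats given MSCs. In linear units the intensities were 117 and 58.5 against 313 and 312. Both MSCT arrays lay above both control arrays, by 1.41 log2 units at the nearest, and the MSCT arrays were almost equal while the control arrays lay 1.01 apart. The group means were 6.37 ± 0.71 and 8.29 ± 0.00 (SD, n = 2 each), which differ by 1.92 in log2 units (standard error 0.38) or 3.77-fold. The nearest genes in the RefSeq order include further granzyme genes (Gzmc and Gzmbl3), and signal from near copies cannot be told apart without the probe sequences, which were not used here. In a piece of whole colon, more cells of a type and more RNA per cell cannot be told apart.

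Nkg7 encodes a protein of the cytotoxic granule membrane that takes part in granule release. Its row (NM_133540) read 6.47 and 7.55 in the control rats and 8.68 and 8.78 in the MSCT rats. The groups did not overlap, and here control replicate 1 was the lower control array, whereas control replicate 2 was the lower one for Gzmb. The means were 7.01 ± 0.76 and 8.73 ± 0.07 (SD, n = 2 each), a difference of 1.72 (standard error 0.41) or 3.30-fold.

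Gzma encodes granzyme A, a tryptase that starts a form of cell death apart from caspases. Its row (NM_153468) read 7.16 and 5.43 in the control rats and 7.51 and 7.75 in the MSCT rats. The MSCT arrays were the higher ones, but control replicate 1 came within 0.35 of them, and the control arrays were 1.73 apart, the widest spread of the 4 genes. The means were 6.30 ± 1.22 and 7.63 ± 0.17 (SD, n = 2 each), a difference of 1.33 (standard error 0.61). The value rested on the control array used: without control replicate 2 the difference was 0.47, and without control replicate 1 it was 2.20.

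Cd8a encodes the alpha chain of CD8, which holds the T cell receptor of a cytotoxic T cell to MHC class I and is also carried as a pair of alpha chains by lymphocytes of the gut epithelium. Its row (NM_031538) read 7.87 and 7.33 in the control rats and 7.01 and 8.20 in the MSCT rats. Here the groups overlapped: the lowest and the highest array were both MSCT arrays. The difference was 0.01 (standard error 0.47), and it lay between -0.59 without MSCT replicate 2 and 0.60 without MSCT replicate 1, so that a change of this size in either direction was not detectable with these arrays.

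**Figure D1:**
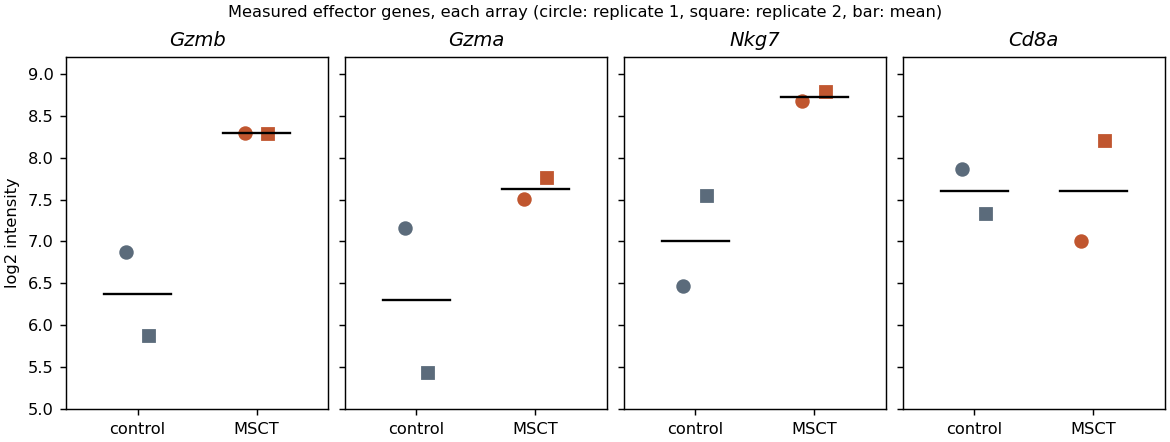
Log2 intensity (vertical axis) of Gzmb, Gzma, Nkg7 and Cd8a on each array of the control and MSCT groups. Circles are replicate 1, squares replicate 2 and bars the group means; for Gzmb, Gzma and Nkg7 both MSCT arrays lie above both control arrays, and for Cd8a the MSCT arrays at 7.01 and 8.20 enclose the control arrays (heights are not comparable between genes, whose probes differ).

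Across the 4 measured genes the median difference was 1.53 on the log2 scale, against -0.02 over all measured rows and 0.05 over the named genes. The groups did not overlap, with MSCT higher, in 3 of the 4, which is the case in 21.3% of all rows and 27.6% of the named genes. The screen used here took the study's limits, a fold change over 2 and an unadjusted p below 0.05, with the p from limma, which the study does not name. It was passed by 2 of the 4 (Gzmb and Nkg7). With the p from the methods' t-test, a plain test with equal variances that equals the one-way analysis of variance of the methods for 2 groups, it was passed by 0 of the 4. Of all rows, 4.63% passed it, 2.12% with MSCT higher. The comparison had been used to choose the genes, so nothing is read from these counts. Control replicate 2 was the lower control array for Gzmb, Gzma and Cd8a, and without it the median difference was 0.94.

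**Figure D2:**
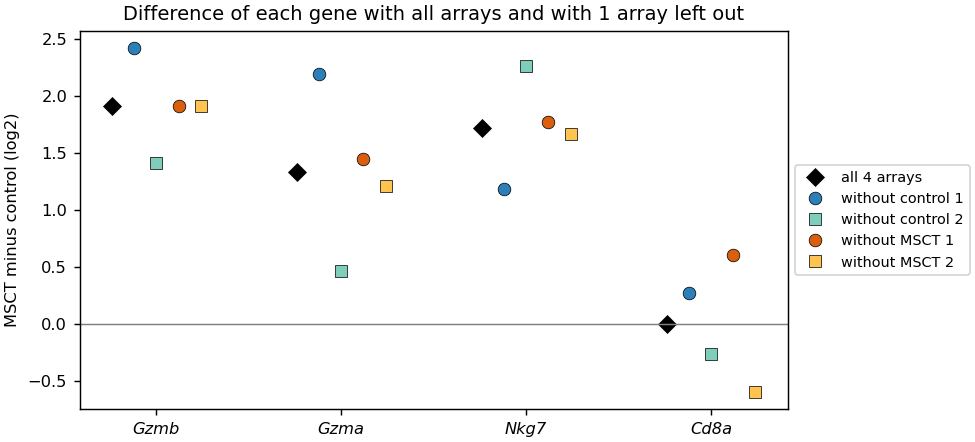
Difference between MSCT and control means (log2, vertical axis) for each measured gene with all 4 arrays (diamonds) and with each array left out in turn (circles and squares). Gzmb (1.41 to 2.42), Nkg7 (1.18 to 2.26) and Gzma (0.47 to 2.20) stay above 0, and Cd8a (-0.59 to 0.60) lies on both sides of it.

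All 4 measured genes were dim. Their mean intensity lay at percentiles 4.25 (Gzma), 11.3 (Gzmb), 16.4 (Cd8a) and 20.9 (Nkg7) of the measured rows, thus among the dimmest 25% of rows, where the median SD between replicates was 0.47, against 0.14 in the brightest 25%. The SD of the 4 genes, pooled over both groups, was between 0.50 (Gzmb) and 0.87 (Gzma). Among the killer cell receptors listed beside them, most rows were blank as well: 15 of 20, Klrk1, Klrc1, Klrg1 and Ncr1 among them, against 8070 of 26420 rows of the whole table. How rows came to be blank is not described, so a blank row is not read as an absent transcript.

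The screen was next applied to genes that work with the effectors, taken from 7 lists without the 10 genes themselves. Of 169 listed genes, 120 had a row and 84 were measured. Of these 84, 13 passed the screen with MSCT higher (15.5%; 3.13% of named genes did) and 1 with MSCT lower (1.78% of named genes did), and the median difference was 0.18. The lists were chosen with earlier results of these data known, so these shares are a description with no test. No row of the whole table passed an adjusted p of 0.05 by limma (0 of 18350 rows, 0%; 2196 had an unadjusted p under 0.05) or by the methods' t-test (0 rows; 1772 unadjusted), and the smallest adjusted limma p was 0.257. With an intensity-dependent, robust variance in limma, 387 rows passed the adjusted p, and without the dimmest 50% of rows 247 did, so the count of 0 depends on the variance model and the filter. By the methods' t-test on all 4 arrays, 8 of the 14 passed (Srgn, Ctsc, Rab27a, Tnfsf10, Tyrobp, Fcgr3a, Laptm5 and Fli1). Zap70, Txk, Itgal, Ptprcap, Cxcr3 and Il2rg did not. Dropping single arrays took the differences of Rab27a, Itgal, Ptprcap and Cxcr3 below 2-fold in some runs (lowest 0.88, 0.95, 0.96 and 0.95). Those of Srgn, Ctsc, Tyrobp, Fcgr3a, Laptm5, Il2rg, Fli1, Zap70, Txk and Tnfsf10 stayed beyond 2-fold.

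Of 15 measured partners of the cytotoxic granule, 12 were higher and 3 lower in the MSCT group (median 0.22), and 3 passed the screen. Srgn encodes serglycin, the proteoglycan on which granzymes and other granule proteases are stored. Its control values of 7.91 and 7.94 stood against 9.76 and 9.55 in the MSCT rats, and the means differed by 1.73 (standard error 0.19, limma adjusted p = 0.257). Ctsc encodes cathepsin C, which cuts the propeptide from granzymes and from mast cell and neutrophil proteases. It lay at 11.24 and 11.23 against 12.73 and 12.87, a difference of 1.56 (standard error 0.19, limma adjusted p = 0.257). In both genes the replicates lay close together and the groups far apart. Rab27a, needed for granules to dock at the membrane, differed by 1.04 (limma adjusted p = 0.304) and fell below 2-fold without control replicate 1 (0.89) or without MSCT replicate 2 (0.88). Unc13d, which primes docked granules, differed by -0.66 (limma adjusted p = 0.496), and Gzmf, another granzyme, by -0.11 with overlapping groups. The brightest partners, Calr, Cd63 and Lamp1, which cells in general express, differed by 0.37, 0.08 and 0.15 and did not pass the screen.

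All 6 measured serpins of the inhibitor list were higher in the MSCT group (median 0.55) and 0 passed the screen. Serpinb9, the inhibitor of granzyme B, read 9.81 and 9.57 in the control rats and 10.22 and 10.48 in the MSCT rats and differed by 0.66 (standard error 0.22, limma adjusted p = 0.375). Serpinb1a and Serpinb6a differed by 0.52 and 0.46 and Serpina3n by 0.57, each with groups that did not overlap. For Serpinc1 (0.75) and Serpinb6b (0.03) the groups overlapped. Thus 4 of the 6 had groups apart with MSCT higher, as did 27.6% of the named genes.

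On the side of the target cell, 18 genes were measured, with 10 higher and 8 lower (median 0.07). Tnfsf10, which encodes the death ligand TRAIL, passed the screen with MSCT lower: its control values were 11.12 and 11.01 and its MSCT values 9.88 and 10.05, a log2 difference of -1.10 (standard error 0.19, limma adjusted p = 0.260). Fas, the receptor of Fas ligand, differed by -0.56 with overlapping groups (limma adjusted p = 0.558). Casp8, the first caspase of the death receptors, differed by 0.78 (standard error 0.19, limma adjusted p = 0.324) and Casp6 by 0.76. Bid, a death agonist that granzyme B cuts directly, differed by 0.14 (limma adjusted p = 0.783).

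Of the receptors of NK and killer cells, 5 of the 20 with a row were measured. Klrb1a, which encodes an NKR-P1 receptor, lay at 6.19 and 7.62 against 7.64 and 7.82, so that control replicate 2 came close to the MSCT arrays, and differed by 0.82 (standard error 0.51, limma adjusted p = 0.574). Klri1, an NK receptor of the lectin type, was lower on both MSCT arrays (difference -0.53, limma adjusted p = 0.506). The 2 genes past the screen were Tyrobp (difference 1.58, standard error 0.23) and Fcgr3a (1.10, standard error 0.19), each with a limma adjusted p of 0.260. Tyrobp encodes the adaptor DAP12 and Fcgr3a an Fc receptor for IgG, and macrophages and other myeloid cells use both. Hcst, the adaptor DAP10 of the receptor NKG2D, differed by 0.66 (limma adjusted p = 0.416).

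The T cell list had 14 measured genes, 11 higher and 3 lower (median 0.49), of which 5 passed the screen. Zap70, the kinase that the T cell receptor and NK receptors recruit, read 6.83 and 6.58 in the control rats and 9.26 and 7.93 in the MSCT rats and differed by 1.89 (standard error 0.49, limma adjusted p = 0.325). Its groups did not overlap, although the MSCT arrays lay far apart, and it no longer passed when either control array was left out. Txk, a kinase of T and NK cells, differed by 1.44 (standard error 0.41, limma adjusted p = 0.338). Itgal, the alpha chain of the integrin LFA-1, differed by 1.38 (standard error 0.44, limma adjusted p = 0.365). Laptm5 differed by 1.33 (standard error 0.20) and Ptprcap by 1.21 (standard error 0.28), and Laptm5 and Itgal are expressed by other leukocytes too. Of these 5 genes, only Laptm5 passed by the methods' t-test. Cd3g and Cd4 gave no such difference. Cd3g, a chain of the receptor complex, lay at 7.41 and 7.51 against 7.97 and 7.22 and differed by 0.13 (standard error 0.31, limma adjusted p = 0.888). Cd4 differed by 0.37 (standard error 0.28, limma adjusted p = 0.624), and in both genes the groups overlapped. Both rows were dim (percentiles 15.1 and 25.6), and a moderate change was not detectable with these arrays. Itgae (CD103), the integrin chain of lymphocytes within the epithelium, differed by -0.17. Cd3d, Cd247, Cd2, Cd5 and Cd28 were blank.

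Among cytokines and chemokine receptors, 14 genes were measured (10 higher, 4 lower, median 0.73). Cxcr3, a chemokine receptor of effector T and NK cells, lay at 6.58 and 6.75 against 7.62 and 8.67 and differed by 1.48 (standard error 0.40, limma adjusted p = 0.335), and it still passed the screen in 1 of the 4 runs with an array left out. Il2rg, the common chain of the receptors of interleukin 2 and interleukin 15, differed by 1.45 (standard error 0.31, limma adjusted p = 0.292). Neither Cxcr3 nor Il2rg passed by the methods' t-test. The effector chemokines Ccl5 and Ccl4 differed by 1.19 and 1.04 with wide spread (standard errors 0.71 and 0.49). Il15 and Il18, cytokines that sustain and activate killer cells, differed by -0.25 and -0.44 and did not pass the screen, and Ifng, Tnf and Il2 were blank. Of 12 transcription factors, Fli1, an Ets factor of blood cells and endothelium, passed (1.13, standard error 0.19, limma adjusted p = 0.260). Runx3, the Runx factor of CD8 T cells and NK cells, lay at 8.73 and 8.08 against 9.33 and 9.37, a difference of 0.94 (standard error 0.28, limma adjusted p = 0.351) that is 1.92-fold and below the limit of the screen, and Runx1 differed by 0.00.

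**Figure D3:**
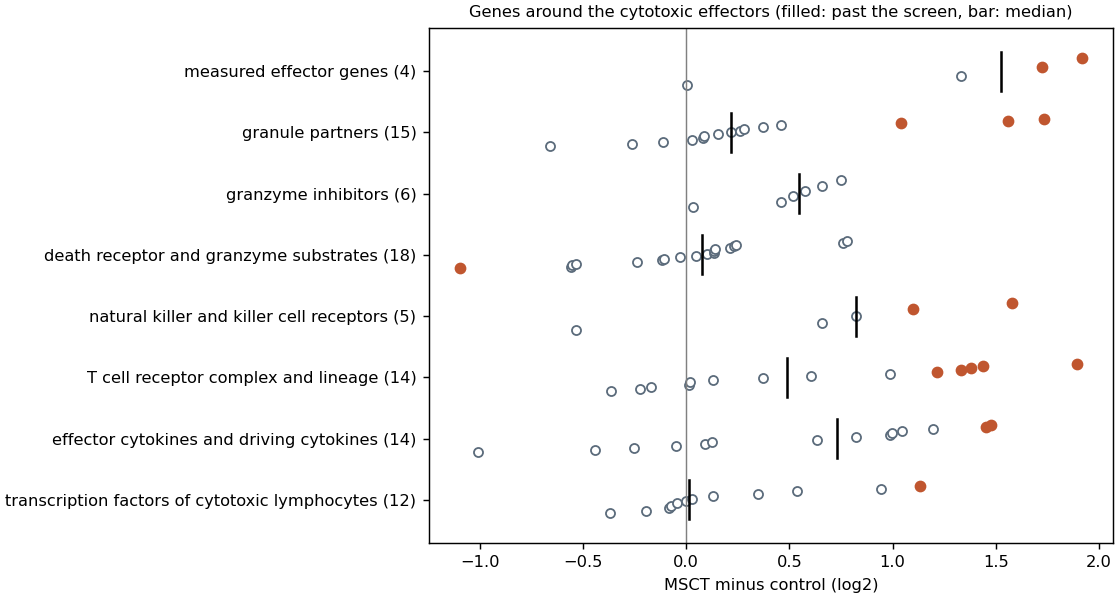
Difference between MSCT and control (log2, horizontal axis) of each measured gene in the effector list and in 7 lists of genes around it, with the number measured in brackets. Filled points passed the screen and bars are medians; the filled points lie at or above 1.04 on the right, except Tnfsf10 at -1.10.

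Some markers of other cell types passed the screen as well. Beside the counts below, 3.13% of all named genes passed it with MSCT higher, and 27.6% had groups apart with MSCT higher. These lists too were chosen with earlier results known, so their counts are a description with no test. Of 10 mast cell genes, 9 were higher and 4 passed the screen, led by the proteases Mcpt1 (NM_172044, 4.41) and Vch (NM_017145, 4.25), which belong to the same family of serine proteases as the granzymes. These are the current RefSeq symbols, and the study's own names for the same genes are Mcpt2 and Mcpt1. The summed mast cell level rested on those proteases (10.77 to 11.01 in the control and 12.58 to 12.91 in the MSCT group, log2), and 7 of the 10 genes had groups apart with MSCT higher. Mcpt9 (1.61) and Gata2 (1.24) also passed the screen, Tpsb2 (1.03), Mcpt8 (1.00) and Hdc (0.86) did not, the groups overlapped for Mcpt4 (0.34), Kit (0.18) and Tpsab1 (-0.09), and Cma1, Fcer1a and Ms4a2 were blank. Of 9 macrophage and monocyte genes, 8 were higher and 4 passed (C1qb 1.61, Cd68 1.29, C1qa 1.28 and Csf1r 1.00), with summed levels of 14.09 to 14.22 and 14.62 to 14.84. The brightest of them, Cd14, differed by -0.04 with overlapping groups. Of 7 B and plasma cell genes, 6 were higher and 2 passed (Blk 1.32 and Mzb1 1.26; summed levels 13.37 to 13.48 and 13.75 to 13.83). The brightest of them did not pass: Xbp1 differed by 1.00 (1.99-fold), Blnk by -0.33 with overlapping groups, and Sdc1 by 0.22. Of 3 neutrophil genes 0 passed (8.38 to 8.99 and 8.89 to 9.05). The part of these cells in the differences of Gzmb, Gzma and Nkg7 was not tested. The epithelial and smooth muscle genes were bright on all arrays apart from Tff3 and Cdx2, whose mean intensities lay at percentiles 57.1 and 63.9 of the rows. Of 13 epithelial genes 10 were higher, 9 of them with groups apart (median 0.22), and 1 passed, Tff3 at 1.49, with summed levels of 17.91 to 17.96 and 18.07 to 18.12. The other epithelial genes lay between -0.08 (Cldn3) and 0.48 (Cdx2). Of 6 smooth muscle genes 0 passed, with differences from -0.04 to 0.08 (17.27 to 17.50 and 17.39 to 17.41). The reference genes B2m, Gapdh, Actb and Hprt1 differed by -0.17, -0.19, 0.12 and 0.44 and did not pass.

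**Figure D4:**
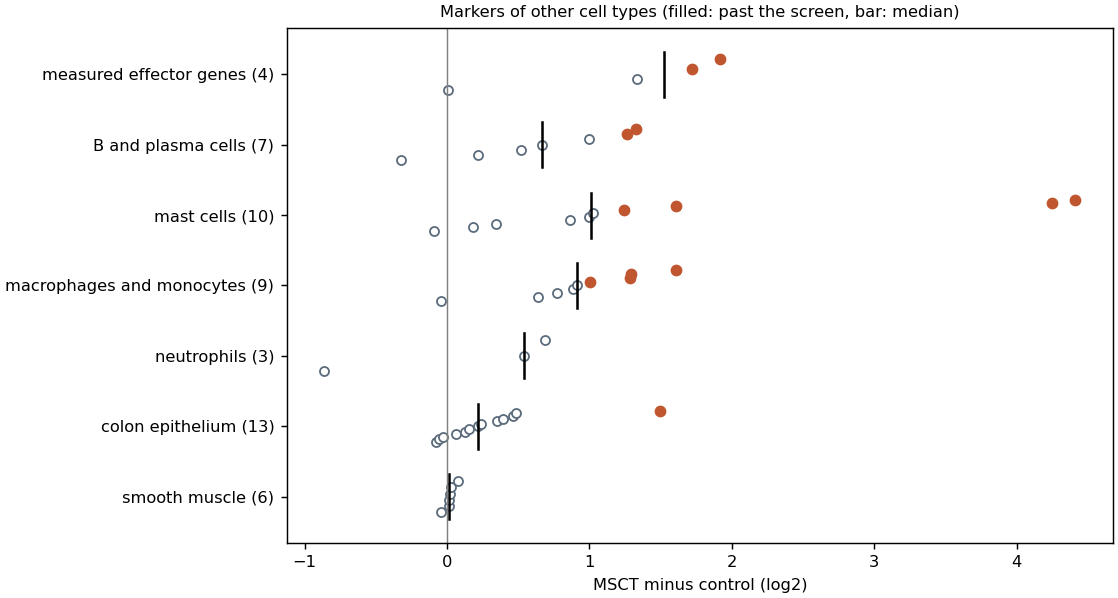
Difference between MSCT and control (log2, horizontal axis) of the measured effector genes and of markers of other cell types, with the number measured in brackets. Filled points passed the screen and bars are medians; the 2 points above 4 are the mast cell proteases Mcpt1 and Vch, and the 6 smooth muscle genes lie close to 0.

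The named genes whose pattern over the 4 arrays was most like the mean of the measured effector genes were Ptprcap, Ctsk, Hcls1, Cxcr4 and Ptpn7. Likeness was the Euclidean distance between log2 profiles centred on their row means, which was 0.05 for Ptprcap and 0.21 for Ptpn7. For the effector genes this mean profile took the values -0.35 and -0.90 in the control rats, then 0.43 and 0.81 in the MSCT rats. The 5 genes differed between the groups by 1.06 (Cxcr4) to 1.24 (Hcls1). With 4 arrays, such a likeness follows mainly from the difference between the groups, and it was not tested.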

How the data were processed

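Colon RNA of control and MSCT rats was hybridized to one-color NimbleGen arrays, 2 per group. The authors scanned them with a GenePix scanner and deposited linear intensity per RefSeq transcript from NimbleScan. The submitters' processing notes name RMA without its role, and the rule for blank rows is not given in the sources used here. The log2 of the deposited values was taken without pseudocount, scaling or filter; the array medians differed by 0.07 at most. Value columns left without a sample numbered 0.

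limma 3.58.1 in R 4.3.3 (lmFit, eBayes) compared MSCT with control over all 18350 measured rows, with Benjamini-Hochberg adjustment over all of them. Each array was taken as 1 rat, since the titles number the replicates without saying what they are. With 2 arrays against 2, 0.333 is the smallest two-sided p of an exact permutation test, so limma's p-values rest on variance shared between rows, and precision is limited by the few arrays. The test was checked on simulated data.

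Rows were named by unversioned accession in the RefSeq gene table of GRCr8 (7010 of 7292 measured NM rows; 38.5% of all measured rows), used for names and gene order. Each member had at most 1 row, and other genes were taken at the row with the highest mean. The members and lists were chosen with earlier results of these data known; the promoter motifs were chosen in the same way. Named are the members, for each list up to 5 genes per direction that passed the screen, the 3 brightest of a list, reference genes, neighbours in gene order and the 5 nearest profiles. Other genes of the lists (Fas, Casp6, Casp8, Bid, Unc13d, Gzmf, Serpinb9, Serpina3n, Serpinc1, Serpinb6b, Klrb1a, Klri1, Hcst, Cd3g, Cd4, Itgae, Ccl4, Ccl5, Il15, Il18, Runx3, Kit, Tpsab1, Tpsb2, Mcpt4, Mcpt8, Hdc, Cldn3 and Cdx2) and the blank genes given by name were picked with their values in view. Figures were drawn with Python 3.11.15, pandas 2.3.3 and matplotlib 3.10.9. Alternatives are given in the closing section.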

Additional observations from a re-analysis of the deposited data

How the results depend on the processing

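The limits are the 2 arrays per group, the low intensity of the 4 measured effector genes and the blank rows. Quantile normalization, equal array medians, an intensity-dependent, robust variance and ratios of linear means kept the count of effector genes past the screen at 2. Their median difference, where it was recomputed, lay between 1.36 and 1.57. Each measured effector gene had 1 row, so other choices of row could not change its value. Taking the replicate number as a block could not change the differences either. The 40 recomputed values of the 4 genes, those unchanged settings included, lay within 1 pooled SD between replicates of the value reported. Leaving out 1 array of 2 always gives this, and Cd8a lay on both sides of 0. By the methods' t-test, 388 rows, 0 effector genes and 8 of the surrounding genes passed, against 850, 2 and 14. Without the dimmest 50% of rows, 251 rows and 3 surrounding genes passed, and 247 of 9175 rows passed an adjusted p of 0.05 by limma; with an intensity-dependent, robust variance, 387 of 18350 did, against 0. That filter and the one at 25% removed all 4 effector genes, so they give no value for them. With a limit of 1.5-fold, 2019 rows and 22 surrounding genes passed. With 1 array at a time left out (the lone array of its group is then assumed to vary like the others), the rows past the screen numbered 934 to 1565, the effector genes 2 to 3, the surrounding genes 11 to 16, and the median difference of the effector genes was 0.94 to 1.69, lowest without control replicate 2. The row count was highest without control replicate 2 (1565) and without MSCT replicate 2 (1503). For single surrounding genes, 177 of 195 values kept direction and side of the screen, 18 kept the direction and fell out of it, and 0 turned. The groups of these surrounding genes did not overlap, so leaving out an array could not turn their direction. Settings that changed only the test, the block, the filter, the fold limit or the choice of row left their differences unchanged. The count of 0 is therefore not a sign of stability. The causes were not tested. The replicate numbers are not said to pair rats. With the replicate number as a block (replicate block), 971 rows, 2 effector genes and 15 surrounding genes passed, and the deviations of same-numbered arrays correlated at 0.23, a value that is the same for both numbers by construction with 2 arrays per group.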

Other observations

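Several of the effector genes lie beside each other in the genome. In the RefSeq gene order, Gzma and Gzmk are adjacent genes, as are Cd8a and Cd8b, and Gzmb lies between Gzmc and Atp12a. Gzmc was blank. Atp12a, a proton pump of the colon epithelium, read 13.79 and 13.85 in the control rats and 13.05 and 13.60 in the MSCT rats and differed by -0.49 (limma adjusted p = 0.519), whereas Gzmb beside it was higher on both MSCT arrays. Esm1, next to Gzmk, differed by 0.49 with overlapping groups, and Etfb, near Nkg7, by 0.17. Rnf103, Chmp3 and Krcc1 around the CD8 genes differed by 0.06, 0.06 and -0.09. Farther on the same side of Cd8b as Krcc1 lies Fabp1, the fatty acid binding protein of absorptive cells, which differed by 4.01 (standard error 0.65, limma adjusted p = 0.260), with control arrays at 6.34 and 8.18. Of the measured neighbours within 5 genes of an effector gene, Iglon5 near Nkg7 (1.03) and Fabp1 passed the screen.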
